A study of Mus musculus with 16 samples.

Results

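The 30 genes described here encode enzymes and carriers that bring pyruvate into mitochondria, run the tricarboxylic acid (TCA) cycle, link it to glutamate and aspartate, and oxidise ketone bodies. They were taken by name, from Mpc1 to Oxct1, by matching mouse gene symbols to the Ensembl identifiers of the count table with the version dropped. All 30 were found among the 48709 genes of the table. The list was chosen with earlier results of these data known. The 4 groups were hearts of quadruple-knockout (QKO) mice, hearts of wild-type (WT) mice, livers of QKO mice and livers of WT mice, with 4 libraries each. In QKO mice the methionine sulfoxide reductase genes Msra, Msrb1, Msrb2 and Msrb3 were targeted. All 8 animals were untreated C57BL/6J females, labelled as 3 to 6 months old, and each gave its heart and its liver. How the alleles were made was not given in the sources used here.

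The TCA cycle oxidises acetyl groups to carbon dioxide in the mitochondrial matrix and passes the electrons on to the respiratory chain. Pyruvate feeds it by oxidation, through the pyruvate dehydrogenase complex, or by carboxylation, through pyruvate carboxylase, which refills the cycle and starts glucose synthesis. Heart burns fatty acids, lactate and ketone bodies for work, whereas liver makes glucose and ketone bodies and handles the nitrogen of amino acids. Methionine sulfoxide reductases repair methionine residues that have been oxidised. The comparison of QKO with WT mice asks what the loss of these enzymes does to RNA levels in each tissue.

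Whole tissue was measured, so fewer cells of a type and less RNA per cell cannot be told apart. Totals were 42.1 M to 72.6 M counts in heart and 37.9 M to 67.9 M in liver, but nuclear ribosomal RNA loci took 0.245% to 56.9% of them in heart, with the lowest shares in QKO heart 4 and WT heart 4, against 0.315% to 0.98% in liver. Protein-coding genes outside the mitochondrial genome held 8.09 M to 24.3 M counts in heart and 21.2 M to 40.2 M in liver. Defining markers matched the tissue labels: 9 cardiomyocyte genes summed to 39690 to 46780 CPM (a count scaled to the size of its library) in heart and 10 hepatocyte genes to 34120 to 48810 CPM in liver. WT liver 4 stood apart with 249 CPM of cardiomyocyte and 184 CPM of skeletal muscle markers, against 20.5 to 58.8 CPM and 0.363 to 15.3 CPM in the other 7 livers. Most of its cardiomyocyte sum was Ttn, at 209.4 CPM, against 10.56 to 34.5 CPM in the other 7 livers. Myl2 (12.64 CPM) and Myl3 (4.172 CPM) were also higher there than in the other livers, which had at most 3.268 and 1.722 CPM. Tnni3 and Pln lay within the range of the other livers, and Myh6, Tnnt2, Actc1 and Ryr2 only slightly above it. Pancreatic acinar markers reached 513 CPM in WT liver 3 and 153 CPM in WT liver 4, against 0.594 to 1.78 CPM in the other 6 livers. Of the targeted genes, Msrb2 averaged 0.161 CPM in QKO hearts against 12.96 CPM in WT hearts, and 0.0295 CPM in QKO livers against 4.46 CPM in WT livers. Msrb3 averaged 7.88 and 48.3 CPM in QKO and WT hearts, and 2.24 and 8.85 CPM in QKO and WT livers. Msra was lower by less, with 7.16 CPM in QKO hearts against 10.32 CPM in WT hearts, and 33.9 CPM in QKO livers against 55.5 CPM in WT livers. Msrb1 was at 18.52 to 23.65 CPM in QKO hearts, above the 13.82 to 16.13 CPM of WT hearts, and at 63.42 to 103.1 CPM in QKO livers, overlapping the 82.4 to 106.6 CPM of WT livers. Which bases of each gene were removed was not given in the sources used here. The remaining RNA of Msra and Msrb1 thus does not check the labels. Msra, Msrb2 and Msrb3 were lower in every QKO library than in every WT library of the same tissue, and Msrb1 was not.

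Heart held more RNA of these 30 genes than liver. Their summed level was 4714 to 5060 CPM in QKO hearts and 4526 to 4741 CPM in WT hearts, against 2663 to 2984 CPM in QKO livers and 2563 to 3032 CPM in WT livers. They took 1.39% to 1.8% of the nuclear protein-coding count in heart and 0.638% to 0.696% in liver. Per kilobase of exon, cytosolic malate dehydrogenase Mdh1 had the highest level in all 4 groups, with means of 250.7 and 229 CPM per kb in QKO and WT hearts and of 119 and 117 CPM per kb in QKO and WT livers. Idh2, the mitochondrial NADP-dependent isocitrate dehydrogenase, came next in heart at 196 CPM per kb in QKO and 188 in WT. In QKO liver the next place went to glutamate dehydrogenase Glud1 at 112 CPM per kb, ahead of the cytosolic isocitrate dehydrogenase Idh1 at 111. In WT liver Idh1 came next at 116 CPM per kb, ahead of Glud1 at 102, so these neighbours changed order between genotypes by less than the spread between animals. The lowest levels per kb were those of the malic enzyme Me2 in heart, with 0.506 in QKO and 0.495 in WT, and of the malic enzyme Me3 in liver, with 0.00667 in QKO and 0.0118 in WT. Animals differed less in heart than in liver: the median coefficient of variation over the 30 genes was 5.94% in QKO hearts and 5.44% in WT hearts, against 11.6% in QKO livers and 16.1% in WT livers.

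**Figure D1:**
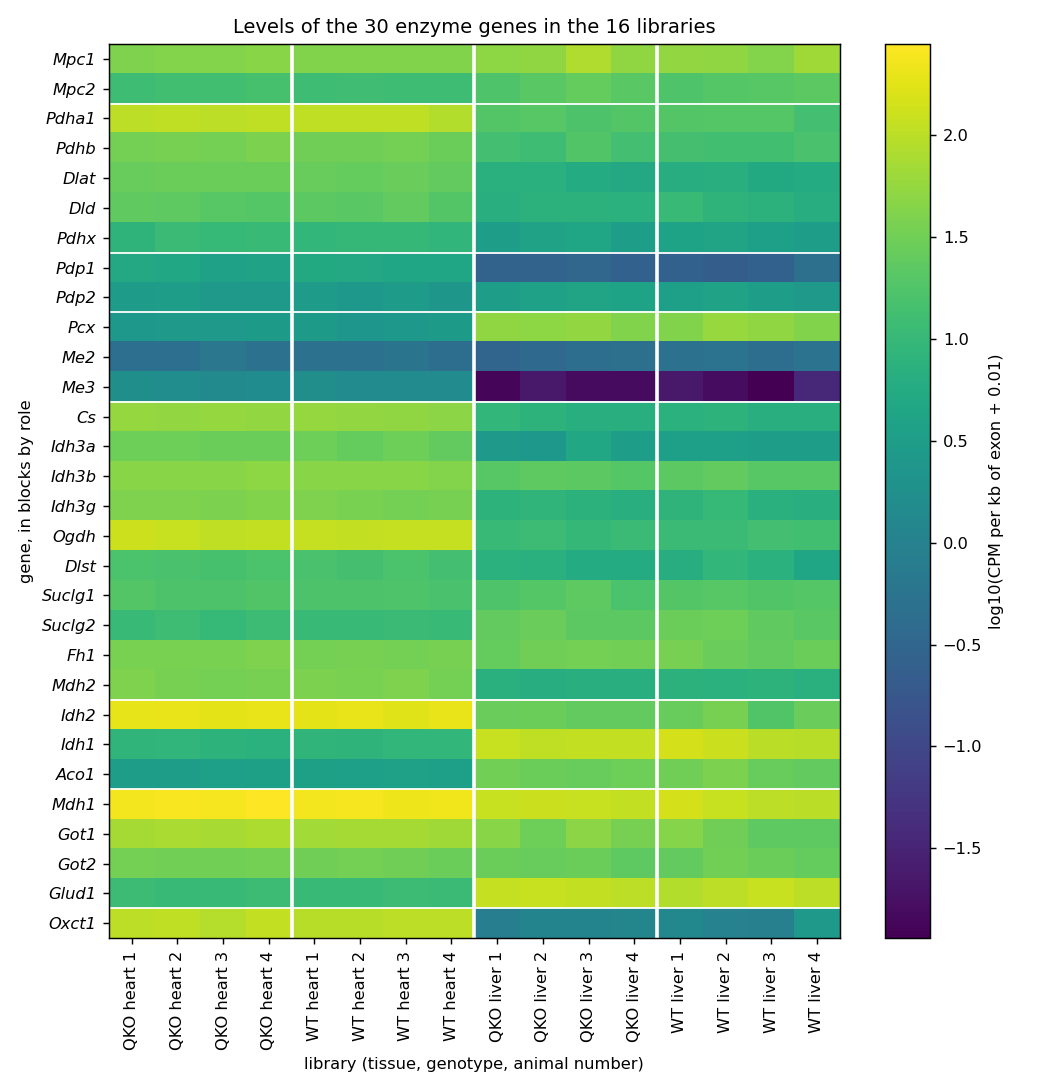
Colour gives log10 of CPM per kb of exon plus 0.01 for the 30 genes (rows, in blocks by role) in the 16 libraries (columns, 4 QKO and 4 WT hearts, then 4 QKO and 4 WT livers). Most rows are brighter in heart, while Pcx, Idh1, Aco1 and Glud1 are brighter in liver, and columns of the same tissue differ little in colour.

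In heart, none of the 30 genes passed the genotype test, and every change was small. The log2 changes of QKO over WT lay between -0.12 for the phosphatase Pdp1 and 0.17 for Pdhb, so all 30 were within 0.2 of 0. By the edgeR quasi-likelihood test with Benjamini-Hochberg adjustment over 16974 genes, 0 of 30 were called at an adjusted p under 0.05, where 0.165% of all tested genes were called. At an unadjusted p under 0.05 there was 1 of 30, where 7.19% of all tested genes passed. DESeq2 and limma-voom called 0 as well after adjustment. At the unadjusted limit DESeq2 passed 1 of 30, limma-voom 4, and edgeR without QKO heart 1 passed 3. The share of all tested genes was not taken for these settings. The median SE was 0.0717 on the log2 scale. The signs were uneven: 25 genes were above 0 and 5 below, with a median of 0.07, while 49.6% of all tested genes were above 0 with a median of -0.0013. Across 18 other settings 22 to 27 genes were above 0, with a median of 0.04 without WT heart 4. The 9 cardiomyocyte markers also summed higher in QKO hearts, 45500 to 46780 CPM, than in WT hearts, 39690 to 44450 CPM. Among them only Myh6 (7720 to 8907 CPM in QKO, 6122 to 7120 CPM in WT) and Ryr2 (1561 to 1677 and 1508 to 1551 CPM) did not overlap. Ttn, the largest, had 24960 to 26050 CPM in QKO hearts and 22720 to 25870 CPM in WT hearts. The skeletal muscle list, 9 genes, summed to 647 to 829 CPM in QKO hearts and 537 to 618 CPM in WT hearts. Most of this was Ckm, with 581 to 701 CPM in QKO hearts and 475 to 586 CPM in WT hearts, which overlapped. Myh1, Myh4, Tnnt3, Tnni2, Pvalb and Actn3 were at 0.429 CPM or less in every heart. The 7 leukocyte markers summed to 49.8 to 55.5 CPM in QKO hearts and 56.8 to 74.0 CPM in WT hearts. The sums of both lists did not overlap between genotypes. The other marker lists overlapped between genotypes in heart, and the part of any list in these signs was not tested.

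The pyruvate dehydrogenase complex turns pyruvate into acetyl-CoA, and Pdha1 and Pdhb are the alpha and beta subunits of its decarboxylase. Pdhb had 131.5, 138, 132 and 145 CPM in QKO hearts, against 123, 122, 129 and 112 CPM in WT hearts. All QKO hearts were above all WT hearts, and the log2 change was 0.17 (SE 0.067, unadjusted p = 0.0241, adjusted p = 0.66). Dlat, the acetyltransferase core, had 129, 141, 142 and 143 CPM in QKO hearts, against 132, 128, 136 and 120 CPM in WT hearts, with QKO heart 1 inside the WT range (log2 0.11, SE 0.067, adjusted p = 0.751). Pdha1 averaged 387 ± 11.54 CPM in QKO and 378 ± 33.8 CPM in WT hearts, and Dld, the dihydrolipoyl dehydrogenase shared with other complexes, 79.2 ± 6.37 and 79.6 ± 8.39 CPM (SD, n = 4). Pdhx, which anchors that dehydrogenase, averaged 39.3 ± 5.2 CPM in QKO hearts and 36.3 ± 1.02 CPM in WT hearts. The phosphatases Pdp1 and Pdp2 switch the complex on. Pdp1 averaged 19.8 ± 3.11 CPM in QKO and 21.4 ± 2.07 in WT hearts, and Pdp2 16.6 ± 1.55 and 15.3 ± 1.72 CPM.

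Mpc1 and Mpc2 together form the carrier that moves pyruvate through the inner mitochondrial membrane. Mpc2 had 88.4, 96.5, 97.8 and 110.3 CPM in QKO hearts, against 89.1, 92.4, 89.8 and 90.2 CPM in WT hearts; QKO heart 1 lay below every WT heart and the other 3 above (log2 0.12, SE 0.070, adjusted p = 0.738). Among cycle enzymes, fumarate hydratase Fh1 had 125, 122, 122 and 134 CPM in QKO hearts, against 116, 118, 116 and 118 CPM in WT hearts. The groups did not overlap, with a log2 change of 0.11 (SE 0.060, adjusted p = 0.737). Idh3g, the gamma subunit of NAD-dependent isocitrate dehydrogenase, had 105, 107, 101.5 and 111 CPM in QKO hearts, against 106, 100.4, 92.9 and 95.9 CPM in WT hearts, which overlapped (log2 0.10, SE 0.063, adjusted p = 0.739). Got1, the cytosolic aspartate aminotransferase of the malate-aspartate shuttle, had 181, 194, 186 and 201 CPM in QKO hearts, against 178, 179, 180.5 and 165 CPM in WT hearts. Every QKO heart exceeded every WT heart, the closest being QKO heart 1 and WT heart 3 (log2 0.12, SE 0.065, adjusted p = 0.736). Pdhb, Fh1 and Got1 were thus the 3 of 30 genes with all QKO hearts above all WT hearts, where 2.3% of all tested genes had this order, and 0 had the reverse order, where 2.37% of all tested genes did. Without both hearts numbered 4, in which ribosomal RNA was lowest, the log2 changes of Pdhb, Got1 and Fh1 were 0.11, 0.07 and 0.08.

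**Figure D2:**
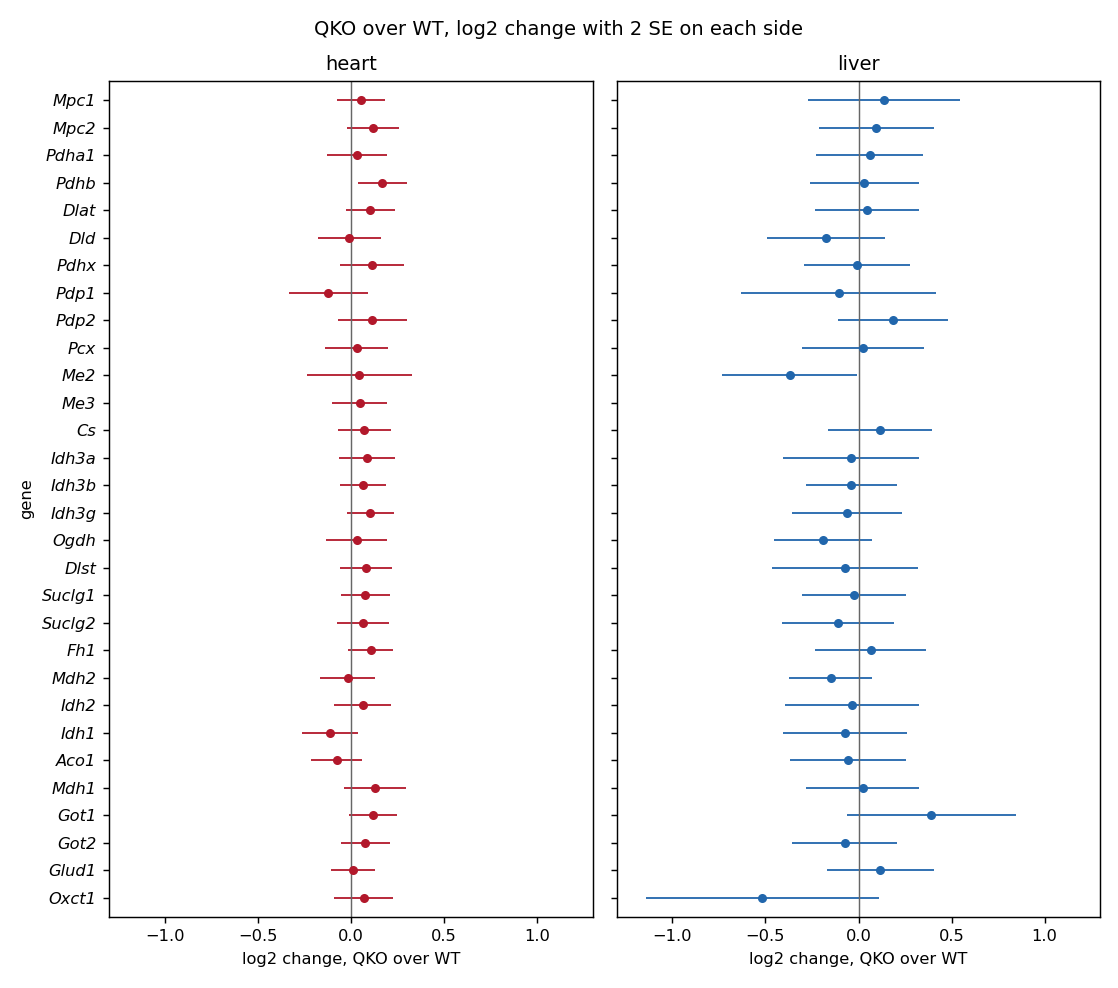
Points give the log2 change of QKO over WT for each gene in heart (left) and liver (right), and bars reach 2 SE to each side. In heart all 30 points lie within 0.2 of 0 and 25 lie above it; in liver the bars are wider and Me3 has no point because its counts were too low to test.

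In liver, 29 of the 30 genes could be tested and none was called, by edgeR, DESeq2 or limma-voom. The share called among all 17738 tested genes was 0.0846%. At an unadjusted p under 0.05 there were 0 of 29 by edgeR, where 3.29% of all tested genes passed. DESeq2 also gave 0 of 29 at this limit, and limma-voom gave 1, where the share of all tested genes was not taken. Of the log2 changes 12 were above 0 and 17 below, where 48.8% of all tested genes were above 0, and the median was -0.04 against -0.01 for all tested genes. Over the 18 other settings the count above 0 ran from 8 without QKO liver 3 to 19 without WT liver 2. The median SE was 0.151, so the precision was lower than in heart. The range went from -0.52 for Oxct1 to 0.39 for Got1, and 26 of 29 changes were within 0.2 of 0.

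Oxct1, the mitochondrial transferase that activates acetoacetate for oxidation, had 3.19, 4.01, 3.96 and 4.3 CPM in QKO livers, against 4.75, 3.63, 3.46 and 10.2 CPM in WT livers. WT liver 4 was the high sample, and it was also the liver with the highest sum of skeletal muscle markers. The log2 change was -0.52 (SE 0.313, adjusted p = 1.0), and without WT liver 4 it was -0.03 (SE 0.181). The mitochondrial malic enzyme Me2, which makes pyruvate from malate, had 2.14, 2.58, 3.1 and 3.41 CPM in QKO livers, against 3.66, 3.77, 3.17 and 3.82 CPM in WT livers. Only QKO liver 4 reached into the WT range, and the log2 change was -0.37 (SE 0.181, unadjusted p = 0.064, adjusted p = 1.0). Got1 had 117, 77.4, 122.5 and 90.2 CPM in QKO livers, against 113, 79.6, 58.4 and 58.8 CPM in WT livers. The groups overlapped (log2 0.39, SE 0.227, adjusted p = 1.0). With 1 library left out the log2 change lay between 0.28 and 0.63, and without WT livers 3 and 4 it was 0.09.

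Ogdh, the decarboxylase of the oxoglutarate dehydrogenase complex, had 59.1, 64.5, 53.1 and 60.7 CPM in QKO livers, against 61.7, 60.1, 74.2 and 73.0 CPM in WT livers. These overlapped (log2 -0.19, SE 0.132, adjusted p = 1.0). With 1 library left out the log2 change lay between -0.25 and -0.13, and without WT livers 3 and 4 it was -0.03. Mitochondrial malate dehydrogenase Mdh2, the last enzyme of the cycle, had 24.7, 22.3, 24.4 and 23.7 CPM in QKO livers, against 26.5, 25.4, 27.7 and 25.1 CPM in WT livers. Every QKO liver lay below every WT liver (log2 -0.15, SE 0.111, adjusted p = 1.0). It was the 1 gene with this order, which 1.07% of all tested genes had, and 0 had all QKO livers above all WT livers, where 1.05% of all tested genes did. Pdp2 had 18.8, 20.9, 23.7 and 22.7 CPM in QKO livers, against 19.4, 22.4, 19.1 and 14.6 CPM in WT livers, with overlap (log2 0.19, SE 0.147, adjusted p = 1.0). The pyruvate carrier subunit Mpc1 had 177 CPM in QKO liver 3, against 105 to 109 CPM in the other QKO livers and 89.7 to 140.3 CPM in WT livers, and its log2 change of 0.13 became -0.09 without that library.

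Whether the genotype effect differed between tissues was tested as the heart effect minus the liver effect over all 16 libraries. None of the 30 genes passed, at an adjusted or an unadjusted p under 0.05, where 0.00511% and 4.0% of all tested genes did. The widest differences were 0.71 (SE 0.615) for Me3, which changed sign to -0.18 without WT liver 4, and 0.58 (SE 0.357) for Oxct1. A p that misses the threshold does not show that the tissues acted alike, and the median SE of these differences was 0.187 on the log2 scale.

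Other genes of the pathway were looked at in a list of 44. In heart 0 of them were called higher and 1 lower in QKO mice, where 0.0707% and 0.0943% of all tested genes were; 3 of 44 passed at an unadjusted p under 0.05, where 7.19% of all tested genes did, and 33 were above 0, where 49.6% of all tested genes were, with a median log2 change of 0.05. The 1 called gene was Sucla2, the ATP-forming beta subunit of succinyl-CoA synthetase. Sucla2 had 127, 130.1, 115 and 123 CPM in QKO hearts, against 157, 167, 172 and 156 CPM in WT hearts. The groups were well apart, and the log2 change was -0.40 (SE 0.067, adjusted p = 0.0288). In QKO livers Sucla2 had 47.8, 59.2, 44.5 and 52.9 CPM, against 84.8, 75.8, 65.5 and 60.5 CPM in WT livers, again without overlap (log2 -0.50, SE 0.146, unadjusted p = 0.00549, adjusted p = 1.0). None of the 44 was called in liver, where 3 passed at an unadjusted p under 0.05 (3.29% of all tested genes did), 23 were above 0 (48.8% of all tested genes were) and the median was 0.01. The heart call was lost in the fit of all 16 libraries (adjusted p = 1.0), without both hearts numbered 4 (0.0623), and without each library in turn except WT heart 4 (up to 0.132, without QKO heart 3); the log2 change then lay between -0.43 and -0.37. Sucla2 lies on chromosome 14, 73525319 to 73596142 on GRCm38, 9.07 Mb from the targeted Msra. It had been seen to be called before the list was drawn up.

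Succinyl-CoA synthetase, which makes the cycle's nucleoside triphosphate, pairs its alpha subunit Suclg1 with either Sucla2 or Suclg2, and the Suclg2 form makes GTP. Suclg2 itself had 50.4, 55.9, 46.2 and 54.8 CPM in QKO hearts, against 49.6, 49.5, 52.3 and 47.1 CPM in WT hearts, and the groups overlapped (log2 0.06, SE 0.070, adjusted p = 0.86). It had 114, 129, 99.8 and 100 CPM in QKO livers, against 132.5, 136, 110.1 and 96.1 CPM in WT livers, also with overlap (log2 -0.11, SE 0.151, adjusted p = 1.0). As a share of the counts of both beta subunits, which cancels depth and scaling, Suclg2 made up 28.5%, 30.04%, 28.7% and 30.8% in QKO hearts, against 23.95%, 22.9%, 23.3% and 23.2% in WT hearts. In QKO livers the share was 70.4%, 68.5%, 69.2% and 65.4%, against 61.0%, 64.3%, 62.7% and 61.4% in WT livers. The shares did not overlap between genotypes in either tissue, and the means differed by 6.17 percentage points in heart and 6.04 in liver. With 4 against 4 animals the exact two-sided permutation test cannot give a p under 0.0286, which is what both comparisons gave. Adjusted over the 10 shares of a comparison, p was 0.0714 in heart and 0.286 in liver, so neither passed. This share holds Sucla2, whose fall in heart was known, and is no independent result.

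**Figure D3:**
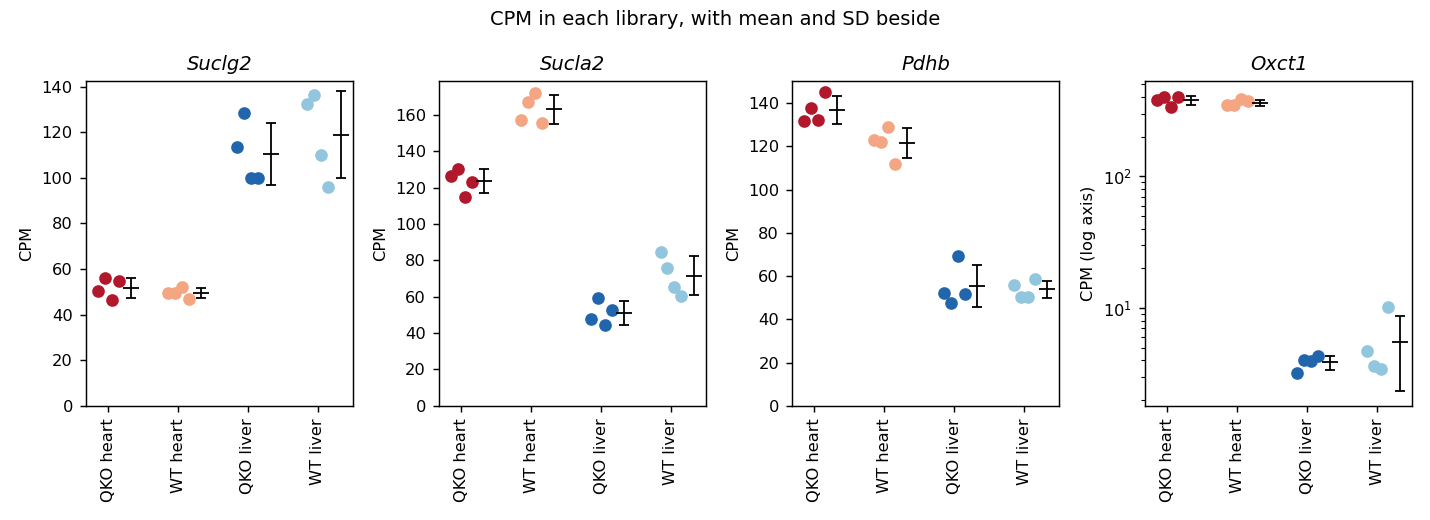
Dots give CPM (y axis; log axis for Oxct1) of Suclg2, Sucla2, Pdhb and Oxct1 in each library of QKO heart, WT heart, QKO liver and WT liver, with the mean and SD of the 4 animals beside them. Sucla2 dots do not overlap between genotypes in either tissue, Suclg2 dots do, and WT liver 4 stands above the other livers for Oxct1.

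A further 8 shares were pairs of isoenzymes or subunits. In heart, Pdhb made up 26.1% ± 0.454 of the Pdhb and Pdha1 counts in QKO mice and 24.4% ± 0.774 in WT mice. Mpc1 made up 47.5% ± 0.755 of the pyruvate carrier counts in QKO hearts and 48.6% ± 0.159 in WT hearts. Both are given with the SD of 4 animals. In these pairs the groups did not overlap and the exact permutation p was 0.0286, but adjusted over 10 shares it was 0.0714. For the 6 remaining pairs in heart, and the 8 in liver, the groups overlapped. None of the genotype comparisons of these shares passed after adjustment.

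**Figure D4:**
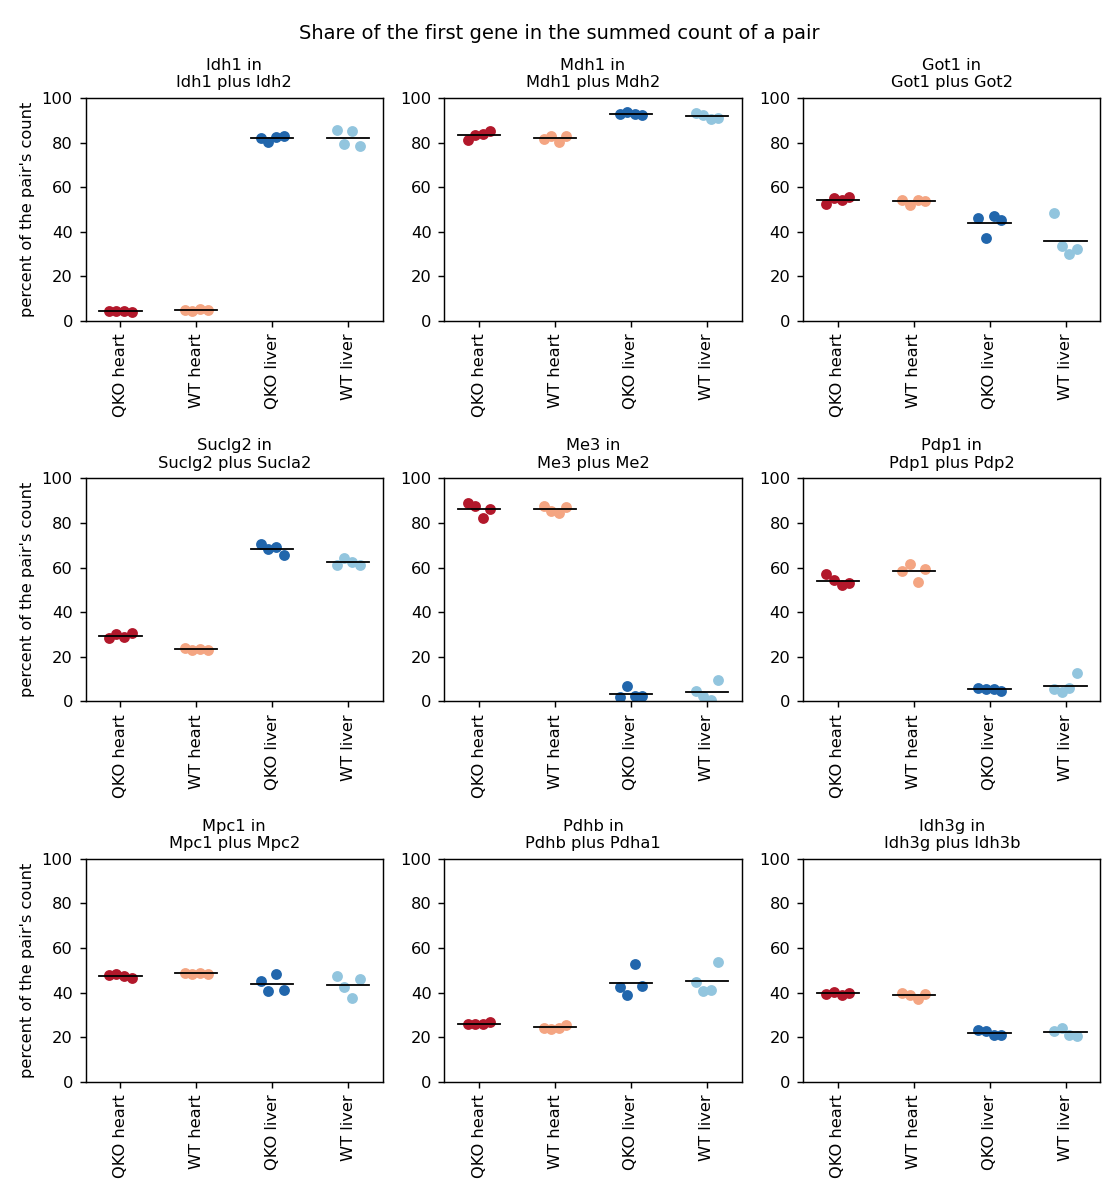
Each panel gives, for 1 pair of genes, the first gene's percent of the summed count (y axis, 0 to 100) in the 4 libraries of each group, with the mean as a bar. Tissues are far apart for the Idh1, Me3, Pdp1 and Suclg2 shares, while QKO and WT dots of a tissue lie close together.

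The tissue comparison, heart over liver, was made in QKO and in WT animals apart, so that each is a repeat of the other in different mice. In QKO mice 20 of 30 genes were called higher in heart and 8 lower, where 37.2% and 37.1% of all tested genes were. In WT mice 18 were higher and 7 lower, where 35.6% and 36.9% of all tested genes were. With a log2 change of at least 1 as well, 17 were higher and 5 lower in either genotype, where 25.8% and 25.0% of all tested genes were in QKO mice and 25.3% and 25.2% in WT mice. All 18 genes higher in WT were among the 20 of QKO (18 of 20), and all 7 lower in WT were among the 8 of QKO (7 of 8). Fh1, Got2 and Pdp2 were called in QKO mice alone, and none of them passed the interaction test. The median log2 change was 1.26 in QKO and 1.17 in WT mice, against 0.0094 and -0.025 for all tested genes.

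**Figure D5:**
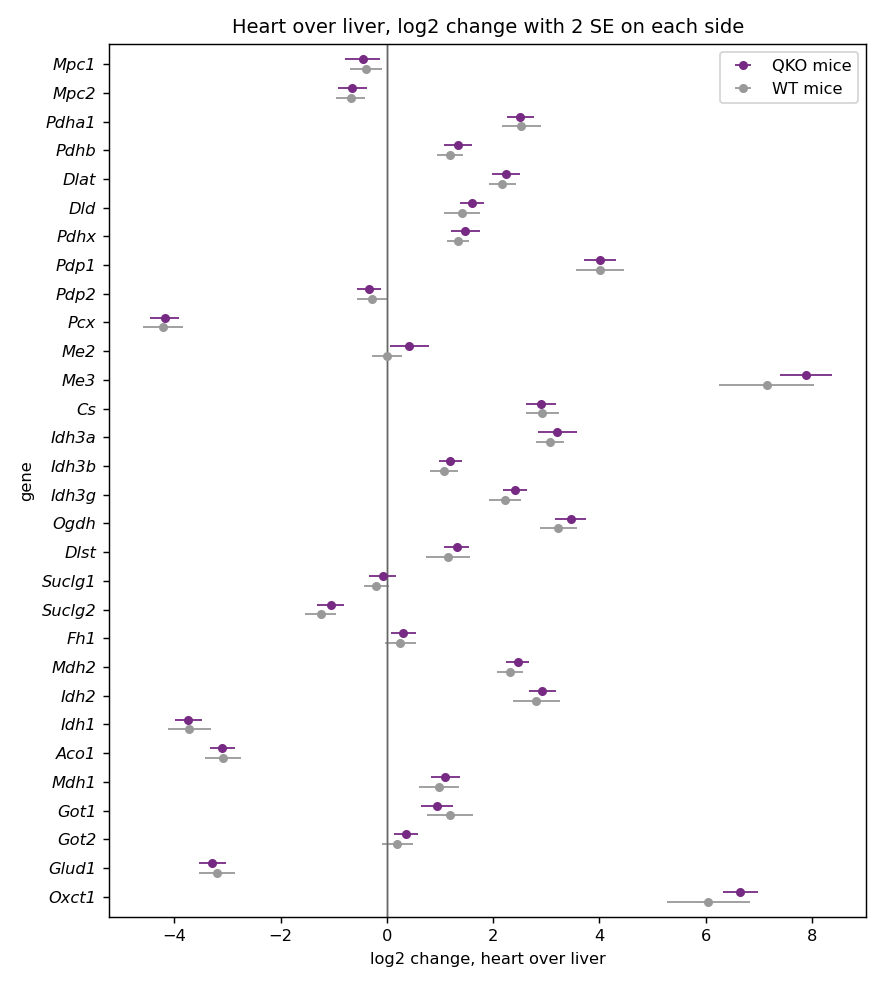
Points give the log2 change of heart over liver for each gene in QKO mice (purple) and WT mice (grey), and bars reach 2 SE to each side. Values run from -4.21 for Pcx to 7.89 for Me3, and the QKO and WT points lie within 1 on the log2 scale of each other, the widest gap being that of Me3.

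The highest ratios belonged to enzymes that use ketone bodies and malate. Me3, a mitochondrial NADP-dependent malic enzyme, had 25.5, 23.8, 21.2 and 22.4 CPM in QKO hearts, against 0.046, 0.184, 0.0781 and 0.082 CPM in QKO livers. It had 24.4, 22.2, 21.6 and 21.5 CPM in WT hearts, against 0.184, 0.088, 0.0216 and 0.399 CPM in WT livers. Liver values rested on 4 to 15 counts in QKO and 2 to 26 in WT, the highest in WT liver 4. The log2 change was 7.89 (SE 0.246) in QKO and 7.15 (SE 0.448) in WT mice, and 8.04 in WT without liver 4. A gene on the opposite strand, A230065N10Rik, overlaps Me3 exons, and the strand setting of the counting was not given in the sources used here. Oxct1 had 381, 398, 338 and 402 CPM in QKO hearts, against 3.19, 4.01, 3.96 and 4.3 CPM in QKO livers. In WT mice it had 346, 347, 384 and 371 CPM in heart, against 4.75, 3.63, 3.46 and 10.2 CPM in liver. That is a log2 change of 6.65 (SE 0.166) in QKO and 6.05 (SE 0.388) in WT mice, and of 6.53 in WT without liver 4.

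Pyruvate oxidation genes were also higher in heart, all 5 subunits of the complex in both genotypes. Their log2 changes ran from 1.34 for Pdhb to 2.51 for Pdha1 in QKO and from 1.19 for Pdhb to 2.53 for Pdha1 in WT mice, with 2.24 and 2.17 for Dlat, 1.60 and 1.42 for Dld, and 1.48 and 1.34 for Pdhx in QKO and WT. The subunit balance moved with tissue. Pdhb made up 26.1% of its pair in QKO hearts against 44.2% in QKO livers, and 24.4% in WT hearts against 45.1% in WT livers. The exact permutation p was 0.0286, the smallest possible, with the animals not kept as pairs (adjusted p = 0.0317 and 0.0286). Pdha1 shares exonic positions with Map3k15 on the opposite strand, so part of either count may come from the other. The phosphatases parted ways. Pdp1 had 22.7, 22.2, 16.7 and 17.6 CPM in QKO hearts, against 1.24, 1.25, 1.41 and 1.14 CPM in QKO livers (log2 4.01, SE 0.148). In WT mice Pdp1 had 23.7, 22.6, 19.2 and 20.2 CPM in heart, against 1.12, 0.99, 1.17 and 2.1 CPM in liver (log2 4.01, SE 0.227). Pdp2 was lower in QKO hearts than in QKO livers (log2 -0.34, SE 0.111, adjusted p = 0.014), and in WT mice had a log2 change of -0.29 (SE 0.140, adjusted p = 0.0867). The QKO call of Pdp2 was lost without heart 3 (0.0519), and in WT mice Pdp2 passed without liver 4 (0.0095). Pdp1 therefore made up 54.2% ± 2.07 of the phosphatase counts in QKO hearts against 5.55% ± 0.59 in QKO livers, and 58.3% ± 3.49 in WT hearts against 7.02% ± 3.77 in WT livers.

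Genes that bring pyruvate in or carboxylate it went the other way. Pcx, pyruvate carboxylase, had 12, 12.9, 12.3 and 13.4 CPM in QKO hearts, against 245, 240.4, 261 and 195.5 CPM in QKO livers. It had 13.5, 10.9, 11.7 and 13.2 CPM in WT hearts, against 195, 279, 251 and 195 CPM in WT livers. This was the lowest ratio of the 30, with a log2 change of -4.18 (SE 0.138) in QKO and -4.21 (SE 0.188) in WT mice. Mpc2 had 88.4, 96.5, 97.8 and 110.3 CPM in QKO hearts, against 127, 157, 190 and 156 CPM in QKO livers (log2 -0.65, SE 0.139, adjusted p = 0.000968). In WT mice Mpc2 had 89.1, 92.4, 89.8 and 90.2 CPM in heart, against 128, 145, 149 and 163 CPM in liver (log2 -0.68, SE 0.133, adjusted p = 0.00074). Mpc1 was lower in heart by less, with log2 changes of -0.46 (adjusted p = 0.026) in QKO and -0.39 (adjusted p = 0.0385) in WT mice. The call of Mpc1 was lost in QKO mice without heart 1, 2 or 3 (adjusted p up to 0.0688), in WT mice without any 1 heart or without liver 1 or 4 (up to 0.09), and in WT mice with the animal as a replicate block (0.0632). Me2, the malic enzyme of the mitochondrial matrix, had log2 changes of 0.42 (SE 0.185, adjusted p = 0.0546) in QKO and -0.0017 (SE 0.140, adjusted p = 0.992) in WT mice, so it was not called. Heart and liver came from the same animals, and with the animal as a replicate block Me2 was called in QKO mice (log2 0.42, adjusted p = 0.04), as it was by limma-voom (0.0428) and without liver 4 (0.0267). Me3 thus made up 86.3% ± 2.9 of the counts of both malic enzymes in QKO hearts against 3.39% ± 2.19 in QKO livers, and 86.2% ± 1.38 in WT hearts against 4.3% ± 3.83 in WT livers.

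Most enzymes of the cycle were higher in heart. Citrate synthase Cs, which opens the cycle, had 331, 315, 323 and 316 CPM in QKO hearts, against 53.4, 45.4, 38.7 and 39.0 CPM in QKO livers (log2 2.90, SE 0.141). In WT mice Cs had 326, 315, 297 and 283 CPM in heart, against 41.8, 45.5, 37.1 and 37.5 CPM in liver (log2 2.93, SE 0.156). Idh3a, the catalytic subunit of NAD-dependent isocitrate dehydrogenase, had 155, 154, 145 and 144 CPM in QKO hearts, against 13.6, 12.9, 23.5 and 16.2 CPM in QKO livers (log2 3.21, SE 0.186). It had 152, 132, 152 and 126.5 CPM in WT hearts, against 17.3, 17.6, 16.8 and 16.04 CPM in WT livers (log2 3.07, SE 0.133). Ogdh had 696, 659.5, 591 and 607 CPM in QKO hearts, against 59.1, 64.5, 53.1 and 60.7 CPM in QKO livers (log2 3.46, SE 0.145). In WT mice Ogdh had 621, 608, 637 and 632 CPM in heart, against 61.7, 60.1, 74.2 and 73.0 CPM in liver (log2 3.23, SE 0.176). In these 3 genes no heart library came near a liver library. Idh3b and Idh3g, the regulatory subunits, had log2 changes of 1.19 and 2.41 in QKO and 1.08 and 2.23 in WT mice, so Idh3g made up 39.6% of this pair in QKO hearts against 22.0% in QKO livers, and 39.0% in WT hearts against 22.1% in WT livers. Dlst, the succinyltransferase of the oxoglutarate complex, had 1.32 in QKO and 1.15 in WT mice, and Mdh2 2.46 and 2.32.

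Of the 30 genes, Suclg1 and Fh1 were closest to even among the later enzymes of the cycle, and Suclg2 was lower in heart. Suclg1 had log2 changes of -0.08 (SE 0.127) in QKO and -0.20 (SE 0.118) in WT mice and was not called. Fh1 had 0.31 (SE 0.119, adjusted p = 0.0318) in QKO and 0.26 (SE 0.143, adjusted p = 0.129) in WT mice, and the QKO call was lost without any 1 heart, without liver 1 or 2 (adjusted p up to 0.104) and with no filter on low counts (0.147). In WT mice Fh1 passed with limma-voom (0.0422) and without liver 1 (0.0431). Suclg2 was lower in heart in both genotypes, by log2 -1.06 (SE 0.123, adjusted p = 5.23e-06) in QKO and -1.25 (SE 0.146, adjusted p = 1.45e-05) in WT mice. Sucla2 was higher in heart, by 1.31 (SE 0.121) in QKO and 1.20 (SE 0.150) in WT mice. Of succinate dehydrogenase, which makes fumarate, Sdha was higher in heart by 1.32 in QKO and 1.23 in WT mice. Sdhb was higher by 0.89 and 1.03, and Sdhc by 0.40 and 0.37. Sdhd had log2 changes of 0.24 and 0.12 and was not called (edgeR adjusted p = 0.0688 and 0.418). Suclg2 therefore took 29.5% ± 1.13 of the beta subunit counts in QKO hearts against 68.4% ± 2.12 in QKO livers, and 23.3% ± 0.456 in WT hearts against 62.3% ± 1.49 in WT livers.

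The cytosolic enzymes Idh1 and Aco1 were lower in heart. Idh2, in mitochondria, was higher in heart with log2 changes of 2.93 (SE 0.131) in QKO and 2.82 (SE 0.222) in WT mice. Idh1, in the cytosol and peroxisomes, had 23.6, 24.9, 21.5 and 20.3 CPM in QKO hearts, against 327, 298, 300.5 and 305.5 CPM in QKO livers (log2 -3.74, SE 0.129). It had 23.7, 23.0, 25.5 and 25.0 CPM in WT hearts, against 411, 351, 268 and 257 CPM in WT livers (log2 -3.72, SE 0.202). Idh1 was thus 4.26% ± 0.355 of the pair in QKO hearts against 81.9% ± 1.23 in QKO livers, and 4.79% ± 0.464 in WT hearts against 82.1% ± 3.79 in WT livers. Aco1, an iron regulatory protein that also acts as an aconitase in the cytosol, had 14.6, 14.3, 15.6 and 16.1 CPM in QKO hearts, against 144, 132, 121 and 134 CPM in QKO livers (log2 -3.10, SE 0.114). In WT mice Aco1 had 16.1, 15.5, 16.7 and 15.7 CPM in heart, against 143, 174.5, 122 and 109.5 CPM in liver (log2 -3.09, SE 0.168).

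Of the shuttle and glutamate enzymes, Glud1 set liver apart. Glutamate dehydrogenase releases ammonia from glutamate and returns its carbon to the cycle. Glud1 had 48.9, 44.9, 46.2 and 48.5 CPM in QKO hearts, against 483.5, 500.3, 457 and 438 CPM in QKO livers (log2 -3.28, SE 0.128). It had 45.7, 45.3, 49.3 and 46.5 CPM in WT hearts, against 368, 432, 495 and 424 CPM in WT livers (log2 -3.19, SE 0.170). The malate-aspartate shuttle, which carries reducing equivalents into mitochondria, was higher in heart at Mdh1 (log2 1.10 in QKO, 0.98 in WT) and Got1 (0.94 in QKO, 1.19 in WT). Got2, its mitochondrial aminotransferase, had 0.36 (SE 0.116, adjusted p = 0.0141) in QKO and 0.19 (SE 0.146, adjusted p = 0.255) in WT mice, and the QKO call was lost with no filter (0.0849). Mdh1 made up 83.3% of its pair in QKO hearts against 92.8% in QKO livers, and 81.9% in WT hearts against 91.8% in WT livers. Got1 made up 54.2% of its pair in QKO hearts against 43.9% in QKO livers, and 53.6% in WT hearts against 36.0% in WT livers. These 9 shares all differed between tissues in WT mice (adjusted p = 0.0286, exact permutation test, adjusted over 10) and 8 of them in QKO mice (adjusted p = 0.0317), the exception being Mpc1 in the carrier, with 47.5% in QKO hearts against 43.9% in QKO livers (p = 0.143).

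In the list of 44 other genes, 16 were called higher and 21 lower in heart in QKO mice, where 37.2% and 37.1% of all tested genes were. In WT mice 15 were called higher and 22 lower, where 35.6% and 36.9% of all tested genes were. The share called higher was thus near that of all tested genes. Its median log2 change was -0.34 in QKO and -0.45 in WT mice. Those highest in heart were Ldhb, the heart form of lactate dehydrogenase (log2 7.51 in QKO, 6.71 in WT), the pyruvate dehydrogenase kinases Pdk4 (4.63 and 4.19) and Pdk2 (3.41 and 3.37), and the aspartate-glutamate carrier Slc25a12 (3.35 and 3.14). Ldhb was at 5.751 CPM in WT liver 4, against 1.251 to 1.289 CPM in the other WT livers. Its WT log2 change ran up to 7.61 with 1 library left out. Among the lowest in heart were Pck1, the cytosolic carboxykinase of glucose synthesis (-8.40 in QKO, -7.62 in WT), the liver glutaminase Gls2 (-7.25 and -7.04), and the citrate carrier Slc25a1 (-5.66 and -5.70). Hepatocyte markers in heart summed to 75.9 to 184 CPM in QKO and 57.5 to 341 CPM in WT mice, and their part in the heart values of Pck1 and Gls2 was not tested.

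Promoter sequence is given for 3 genes that mark the patterns above: Suclg2, tilted to liver within its pair, Cs, tilted to heart, and Glud1, tilted to liver. The sequences come from RefSeq on GRCm38.p6 and read 5′ to 3′ on the gene's strand, ending just before the annotated start, with bases in GENCODE exons left out. Capitals mark matches, on either strand, to a GC box (GGGGCGGGG). Suclg2 is shown for chr6:95718847-95719096 on the minus strand, Cs for chr10:128337477-128337726 and Glud1 for chr14:34310494-34310726, both on the plus strand.
Suclg2: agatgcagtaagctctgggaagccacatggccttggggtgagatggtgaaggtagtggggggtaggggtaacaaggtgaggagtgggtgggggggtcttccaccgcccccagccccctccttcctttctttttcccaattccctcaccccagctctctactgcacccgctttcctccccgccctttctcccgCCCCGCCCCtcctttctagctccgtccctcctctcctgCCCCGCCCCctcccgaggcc
Cs: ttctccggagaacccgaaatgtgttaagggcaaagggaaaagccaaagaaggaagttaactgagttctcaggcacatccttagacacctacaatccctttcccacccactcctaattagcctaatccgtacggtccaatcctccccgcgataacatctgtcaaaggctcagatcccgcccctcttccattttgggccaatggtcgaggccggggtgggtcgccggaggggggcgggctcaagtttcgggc
Glud1: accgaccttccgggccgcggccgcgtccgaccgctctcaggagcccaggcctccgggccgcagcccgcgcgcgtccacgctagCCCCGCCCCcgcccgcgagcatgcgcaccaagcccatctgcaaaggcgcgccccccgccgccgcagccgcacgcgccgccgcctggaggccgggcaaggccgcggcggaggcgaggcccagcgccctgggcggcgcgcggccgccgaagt
Suclg2 had 2 matches, Glud1 1 and Cs 0, and G and C made up 64.4%, 82.0% and 55.2% of their bases. RefSeq windows of 250 bases were at hand for 27 of the 30 genes, in 35 windows, and Pdp1, Idh3a and Me2 had none. The GC box was found for 8 of the 27, in 8 of the 35 windows, against 10.4% of all 32851 windows. The median share of G and C was 60.8% in the 35 windows and 52.4% in all windows, and its part in the matches was not tested. The cAMP response element (TGACGTCA) was found for Mdh2 and Ogdh, in 4 of the 35 windows, against 1.55% of all windows. The motifs of estrogen-related receptors (TNAAGGTCA, 1.14% of all windows), NRF1 (3.74%) and ETS factors (CCGGAAGT, 2.88%) matched no window of the 27 genes, each read on both strands.

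Positions were set against those of the targeted genes. Of the 30 genes 6 lie on a chromosome with a targeted Msr gene, and 2 within 20 Mb of one. These were Cs, 7.44 Mb from Msrb3 on chromosome 10, and Mpc1, 16.44 Mb from Msrb1 on chromosome 17. Cs had log2 changes of QKO over WT of 0.07 (SE 0.070) in heart and 0.12 (SE 0.139) in liver, and Mpc1 of 0.06 (SE 0.063) and 0.13 (SE 0.204). Exons of 7 genes overlapped a gene on the opposite strand, and 8 genes matched a transcript of another gene at 95% identity or more over 200 bases or more. For Pdha1, Me3 and Oxct1 that was the opposite-strand gene overlapping their own exons, and for Glud1, Got2, Mpc1, Pdhb and Suclg2 a copy elsewhere. The counts of Mpc1-ps, a copy of Mpc1, came to 6.15% of those of Mpc1, and other copies without shared position came to 0.531% or less of their gene, Gm8219, another copy of Mpc1, having no count in the table. Of antisense or overlapping genes, the counts of Map3k15 came to 27.6% of those of Pdha1, A230065N10Rik to 12.8% of Me3 and BC037032 to 6.6% of Oxct1.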

How the data were processed

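RNA was measured in heart and liver of 8 mice, in 16 libraries made from ribosome-depleted total RNA with a stranded kit and paired reads, per the labels' protocols. The submitters' processing notes name mm10, cutadapt, HISAT2, featureCounts and limma without versions, and the authors deposited raw counts, whole numbers per Ensembl gene with no normalization. The strand setting of the counting and the annotation release were not given in the sources used here. Samples were grouped by the tissue and genotype of the labels, and all 16 columns were mapped, with 0 left over. Gene names and positions came from GENCODE M21 on GRCm38, the assembly of mm10, which matched 48349 of 48709 identifiers, 41341 with the same version.

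For CPM, TMM factors of edgeR (trimmed mean of M-values) over all 16 libraries adjusted the library sizes, and per kb by exonic length. Tests used the edgeR 4.0.16 quasi-likelihood F test (R 4.3.3) with its expression filter, TMM within the libraries tested, and Benjamini-Hochberg adjustment over all tested genes at 0.05. The SE is the log2 change divided by the square root of F. The script recovered changes placed in simulated counts. Shares were compared by exact two-sided permutation tests over 70 relabellings (SciPy 1.17.1). Between tissues these relabellings did not keep heart and liver of 1 animal as a pair. Copies were sought with BLAST 2.17.0 among GENCODE transcripts. Depth sets the precision: a member with few counts, such as Me3 in liver, has a wide error. P-values of the gene tests set a difference between groups against the spread of 4 animals a group, estimated with help from all genes. The 24 pairs of replicates within groups were no copies of each other (chi-square per gene 26.3 or more). QKO and WT libraries with the same number correlated, after removal of group means, at 0.108, 0.12, 0.0394 and 0.399 in heart and 0.0693, -0.00628, -0.115 and 0.148 in liver. The labels do not pair these numbers across genotypes, so numbers were not taken as pairs in the main tests, and the replicate block was an alternative. Heart and liver of 1 animal are paired by the labels (0.0395 to 0.147), and the animal was an alternative block.

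The 30 genes, the list of 44 and the marker lists were chosen with earlier results of these data known. All 30 are accounted for. Sample values are given for the 6 genes with the lowest unadjusted p in each tissue and the 6 at each end of heart over liver in WT mice, and, of the 44, for any gene called for genotype, with up to 4 at each end of the tissue comparison; Suclg2 in the genotype comparison, Mpc1 in liver and the copies were added after their values were seen. Alternatives were DESeq2 1.42.0, limma-voom 3.58.1, RLE scaling, protein-coding genes only, no filter, a minimum of 1 CPM in 4 libraries, the replicate block, the animal number series, all 16 libraries in 1 fit, libraries left out, and, for shares, exonic length. Another of the 44 genes that this rule names, and 1 of the 10 shares, are not reported here. The limma-voom fits between tissues were added after the data were seen.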

Additional observations from a re-analysis of the deposited data

Results flagged for a closer look

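In a group of 4 a sample was picked out when its gap to the nearest other, divided by the range, was above Dixon's 95% critical value, and chance picks about 1 in 20 groups. Of 160 groups, 120 of gene levels and 40 of shares, 8 had such a sample. Mpc1, of the pyruvate carrier, was at 177.1 CPM in QKO liver 3, above the other QKO livers. WT heart 4 was low for 3 genes: Pdha1 at 327.3 CPM, Suclg1 at 71.15 CPM and Got1 at 164.9 CPM. That library also had 7.37% of its counts at nuclear ribosomal RNA loci, against 38.4% to 56.9% in the other WT hearts, and the part of this in the 3 values was not tested. Dlat, of the pyruvate dehydrogenase core, was low in QKO heart 1 at 128.7 CPM. Pdp1 was high in WT liver 4 at 2.101 CPM, the liver with the highest sum of skeletal muscle markers, whose part in it was not tested. The share of Me3 in both malic enzymes was high in QKO liver 2 at 6.667%, on 15 counts of Me3. The share of Pdhb in its pair was high in QKO heart 4 at 26.79%.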

How the results depend on the processing

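In each of 18 alternatives the count of the 30 genes called for genotype stayed at 0 in heart and in liver, and in each of 19 at 0 for the difference between tissues. Genes called higher in heart numbered 17 to 21 in QKO and 17 to 19 in WT mice, and genes called lower 5 to 8 and 5 to 7. With a log2 change of 1 or more required, the count lower in heart in QKO mice was 5, against 8 without that limit, because Mpc1, Mpc2 and Pdp2 had smaller changes. With the replicate block, Sucla2 in heart had a log2 change of -0.40 (adjusted p = 0.0312), and genotype calls among the 30 stayed at 0. With the animal as a replicate block 21 genes were higher and 8 lower in heart in QKO mice, where 6648 and 6592 of all 18039 tested genes were. In WT mice 18 were higher and 6 lower with this block, where 6429 and 6601 of all 18204 tested genes were. In heart 7 of 8 libraries correlated best with the library of their own number in the other genotype, in liver 2 of 8, a hint from the data and not from the design. With 1 library left out the exact tests of shares cannot go under 0.0571 and say nothing. No called gene changed direction under these alternatives. Calls over all genes for QKO over WT in heart, 12 higher and 16 lower, became 29 and 35 with DESeq2, 44 and 58 with no filter, 20 and 30 with the replicate block, 20 and 22 with the animal number series, 6 and 15 among protein-coding genes alone, 8 and 8 with all 16 libraries, and 11 to 13 and 7 to 14 with 1 library left out. In liver 10 and 5 became 21 and 29 with DESeq2, 23 and 21 with all 16 libraries, 5 and 4 among protein-coding genes alone, 7 and 9 without WT livers 3 and 4, and 7 to 11 and 4 to 8 with 1 library left out. The 1 gene called for the difference between tissues became 0 with limma-voom and with the animal as a block, and 3 without WT liver 4. The cause of these shifts was not tested. Low counts limit Me3 in liver, which had 2 to 26 counts.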
